A study of Triticum aestivum with 24 samples.

Results

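Wheat genes annotated as homeobox leucine-zipper proteins were listed as cleaved at a site paired with miR166, and these genes are described here with every miR166 member that the target table places on them. They were taken by name only, as all rows whose miRNA is of family miR166 and whose annotation contains "Homeobox leucine-zipper". This rule found 4 loci of the 62 in the table, TraesCS1A01G157500 on chromosome 1A, TraesCS1B01G173900 on 1B, TraesCS5A01G043400 on 5A and TraesCS5B01G047200 on 5B, with 52 of the 239 rows, each of which pairs 1 miRNA with 1 listed cut. The plant studied was bread wheat (Triticum aestivum), cv Chinese Spring, a hexaploid whose genes often come as near-identical copies on the A, B and D sub-genomes. Control plants stayed at 18 °C in the light and 16 °C in the dark. Heat-stressed plants were held at 37 °C for 5 days at the boot stage and then returned to the control conditions. Leaves were sampled at 0, 1 and 4 days after treatment, day 0 being the end of the heat and days 1 and 4 recovery. The 6 groups had 4 replicates each, so 24 degradome libraries were made, each from RNA of 18 plants. All plants came from the selfed seed of a single individual. The table has 0 columns per library and does not split its values by treatment or day, so no comparison of heat with control was possible, each value below stands for the whole series without replicates, and the depth per library is unknown. The table gives no expression levels, so the leaf label could not be checked against marker genes.

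Homeobox leucine-zipper proteins are plant transcription factors that bind DNA through a homeodomain and form dimers through the adjoining zipper. The members of class III are the known targets of miR166. In Arabidopsis they include REVOLUTA and PHABULOSA, which specify the upper side of the leaf, and miR166 and its close relative miR165 restrict their transcripts to that side. The annotation used here does not give the class of the 4 wheat loci. A plant miRNA guides an ARGONAUTE protein to cut the paired transcript, usually so that the first base of the downstream fragment lies opposite base 10 of the miRNA. Degradome sequencing, also called parallel analysis of RNA ends (PARE), reads the 5′ ends of cleaved or otherwise uncapped transcripts as short tags. The position where tags start can mark a cut, but a tag does not show by itself what made the end.

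The binding sites are shown first because the comparison of the loci turns on a few of their bases. Each is the stretch of coding sequence covered by the binding sites of all miR166 members listed on that locus, 5′ to 3′, with the base at the listed cleavage position in capitals. It runs from position 565 to 588 in TraesCS5A01G043400, 661 to 684 in TraesCS5B01G047200 and 578 to 601 in both TraesCS1A01G157500 and TraesCS1B01G173900, as the table gives them. They were taken as positions in the coding sequence of IWGSC RefSeq v1.0, to which the methods mapped the tags.
TraesCS5A01G043400 and TraesCS5B01G047200: atgggaatgaagCctggtccggat
TraesCS1A01G157500 and TraesCS1B01G173900: ctgggatgaagcCtggtccggatt

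The sites on 5A and 5B had the same sequence, as did those on 1A and 1B. Between these pairs of loci, 20 of the 23 aligned bases were identical, 18 of them in 1 unbroken run. The 3 differences were T1C, G2T and A5G, with the base of 5A/5B given first and positions counted from 1 at the first aligned base (position 566 in TraesCS5A01G043400 and 578 in TraesCS1A01G157500). All 3 lay upstream of the cleavage position, opposite the 3′ part of the miRNAs. Of the 7 full codons within the aligned stretch 1 differed, at A5G, and all 7 encoded the same residues at both sites. T1C and G2T lay in the codon before, which the stretch holds only in part and which was not compared. The listed cut was not at the same aligned base. It fell at aligned base 12 in the 5A/5B site and at base 13 in the 1A/1B site, that is, 1 nt further downstream. On 1A and 1B the study's longer target list places the cut 1 nt further upstream within the site than given here, with other miR166 members listed. On 5A and 5B it has the main cut at the same base and another 1 nt further downstream. It also lists homeobox loci elsewhere on 5A and 5B. Which list is right is unknown, so this shift, and what rests on it below, holds for the deposited table only.

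The 19 miRNAs are shown because they differ in where their 5′ end starts, and the lists at the 2 sites differed along with it. They are grouped by seed (bases 2 to 8, in capitals), and sequences are given 5′ to 3′ with T as in the table. The first group, of 9 miRNAs, was listed at the 5A/5B site only.
miR166-13-3p: tCGGACCAggcttcattc
miR166-1-3p: tCGGACCAggcttcattcc
miR166-6-3p: tCGGACCAggcttcattccc
miR166-9-3p: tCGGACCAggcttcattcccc
miR166-4-3p: tCGGACCAggcttcattcccct
miR166-7.1-3p: tCGGACCAggcttcaatcc
miR166-8.2-3p: tCGGACCAggcttcaatccc
miR166-8.1-3p: tCGGACCAggcttcaatccct
miR166-8.3-3p: tCGGACCAggcttcaatccctt

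The second group, of 6 miRNAs that start 1 base earlier, was listed at both sites.
miR166-12.2-3p: tTCGGACCaggcttcattc
miR166-4.2-3p: tTCGGACCaggcttcattcc
miR166-4.1-3p: tTCGGACCaggcttcattccc
miR166-3.1-3p: cTCGGACCaggcttcattccc
miR166-3.2-3p: cTCGGACCaggcttcattcccc
miR166-8.5-3p: cTCGGACCaggcttcaatccc

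The remaining 4 start further upstream still. Of these, miR166-12.1-3p was listed at both sites, miR166-7.2-3p and miR166-8.6-3p at 5A/5B only, and miR166-5.2-3p at 1A/1B only.
miR166-12.1-3p: tTTCGGACcaggcttcattcc
miR166-7.2-3p: tCTCGGACcaggcttcaatccc
miR166-8.6-3p: cCTCGGACcaggcttcaatccc
miR166-5.2-3p: aTCTCGGAccaggcttcaatc

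At TraesCS5A01G043400, 4 tags started at position 577, and these were all the tags of the surrounding window, named as 10 nt in the table (100%, Wilson 95% interval 51.0 to 100). TraesCS5B01G047200 had the same 4 of 4 tags at position 673. The 18 rows of these 2 loci were identical in miRNA, site sequence, score, tags, window, category and p-value, and only their positions differed, by 96 nt or 32 codons. TraesCS1A01G157500 and TraesCS1B01G173900 had 4 tags each at position 590, out of a window of 6 (66.7%, interval 30.0 to 90.3), so 2 tags started elsewhere in the window. Their 8 rows were identical too. Whether tags of 1 copy were counted again for the other cannot be told apart from equal cutting of both. A count of 4 has an exact Poisson 95% interval of 1.09 to 10.2, and the intervals of the window shares overlapped. Intervals cover counting error only, and they take the deposited values as raw counts of independent reads, which is not stated. No locus of this annotation on a D chromosome was among the rows used here.

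The pairs of loci did differ in peak category, the class the target caller gives a peak for how it stands within its transcript. Category 3 was given to the 5A and 5B sites and category 0 to the 1A and 1B sites, and all miRNAs at a site had the same category. In callers of this kind a lower number usually means a more prominent peak, but the definition is not given in the sources used here. Across the table, category 3 was given to 6 sites, these 2 and 4 others, and at all 6 the listed position held every tag of its window. A full window share did not by itself go with category 3, since 17 of the 23 sites with a full share were in category 0.

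All 52 pairs were free of gaps. The 18 miRNAs at the 5A/5B site were fully paired by Watson-Crick bases from 5 nt upstream to 8 nt downstream of the cleavage position, and the 8 miRNAs at the 1A/1B site from 6 nt upstream to 7 nt downstream, a run of 14 nt in each case. The base next to this run on the downstream side formed a G:U wobble in all pairs, 9 nt from the cut at 5A/5B and 8 nt at 1A/1B. At the 1A/1B site all 8 miRNAs had an additional wobble 8 nt upstream of the cut, at A5G, where the 5A/5B site has a Watson-Crick pair with all 18. The plot of pairing by distance from the cut shows these columns side by side.

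**Figure D1:**
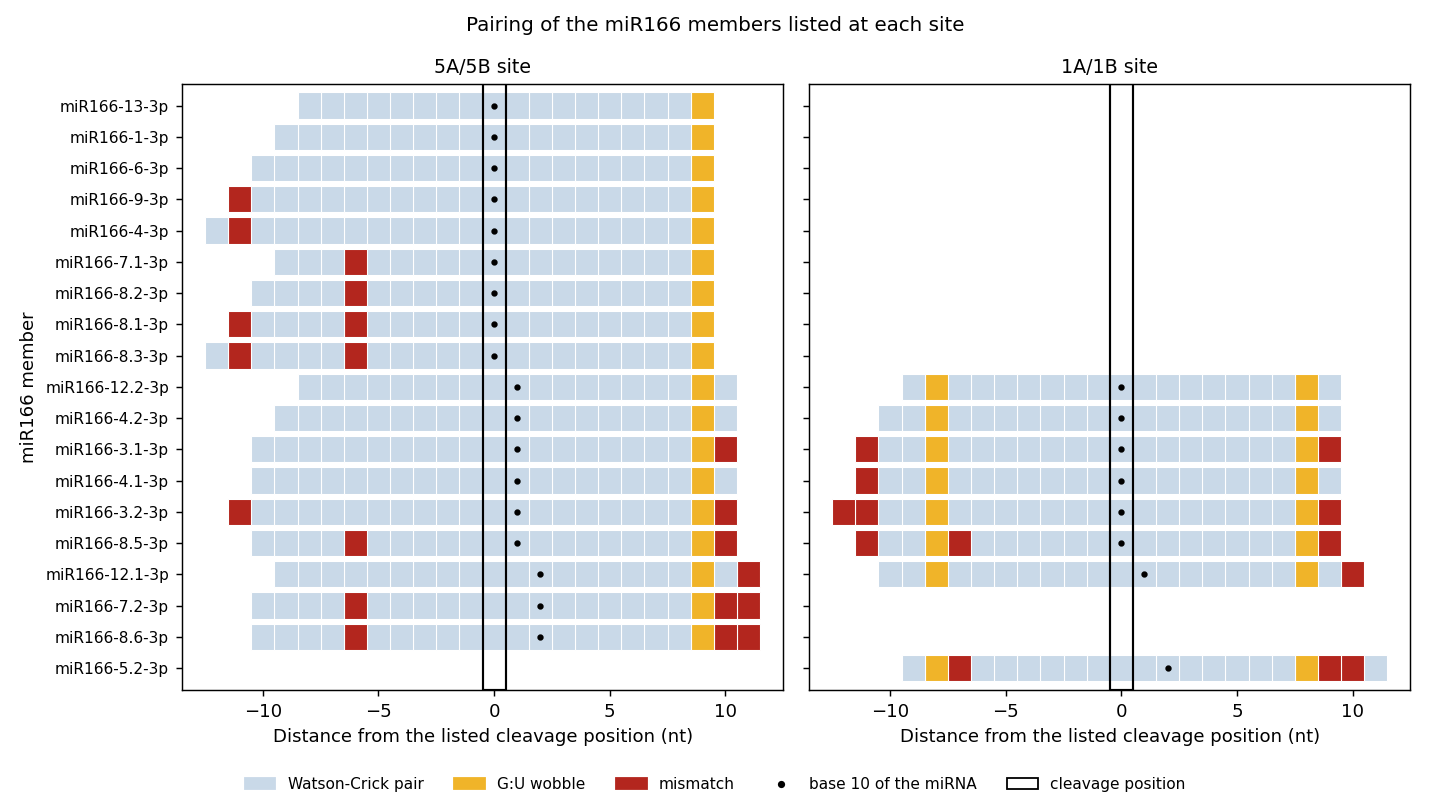
Pairing of each listed miR166 member (rows) with the 5A/5B site (left) and the 1A/1B site (right), against the distance in nt from the listed cleavage position (outlined column). Each cell is 1 miRNA base, coloured as a Watson-Crick pair, a G:U wobble or a mismatch, and the dot is base 10 of the miRNA; the 1A/1B panel has a second wobble column 8 nt upstream of the cut, and base 10 sits on the cut for the first 9 miRNAs at 5A/5B but for the next 6 at 1A/1B.

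The base opposite the cut rests on the same deposited cleavage positions and shares their limit. With 1 cut per site and pairs free of gaps, it is fixed by the 5′ offset of the miRNA, so the grouping below follows by construction. At the 5A/5B site the cut lay opposite base 10 of 9 of the 18 miRNAs (50%), base 11 of 6 and base 12 of 3. The 9 were the whole first seed group, and the 6 the whole second group. At the 1A/1B site it lay opposite base 10 of 6 of the 8 miRNAs (75%), the whole second group, opposite base 11 of miR166-12.1-3p and opposite base 12 of miR166-5.2-3p. Over the 52 pairs, base 10 accounted for 30 (57.7%), base 11 for 14 and base 12 for 8. In the other 187 pairs of the table base 10 accounted for 71 (38.0%), base 11 for 55, base 12 for 51 and base 13 for 10. The miRNAs at 1 site share their tags and overlap in sequence, so these shares are descriptions and were not tested.

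The same offset ran through the lists of miRNAs, of which 7 were listed at both sites, 11 at 5A/5B only and 1 at 1A/1B only. For all 9 miRNAs of the first seed group, position 590 of TraesCS1A01G157500 lay opposite base 9, and none was listed there; across all rows 0 pairs had the cut opposite a base under 10. Of these 9, 7 could be set against the 1A/1B sequence, and computed as below they scored 1 to 5, within the range of 1 to 6 of the 8 miRNAs listed there. For miR166-5.2-3p, the only miRNA not listed at 5A/5B, position 577 lay opposite base 13, which the table gives only for miRNAs of 24 nt. For miR166-7.2-3p and miR166-8.6-3p, also absent from the 1A/1B list, position 590 lay opposite base 11. Their computed score at 1A/1B was 7, equal to the highest score in the table. Why a miRNA was listed at only 1 of the sites was not tested, and these lists too are those of the deposited table.

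The score is the caller's penalty for imperfect pairing, where 0 is perfect. At the 5A/5B site it ranged from 0.5 to 4.5 with a median of 1.5 over 18 miRNAs, and at the 1A/1B site from 1 to 6 with a median of 3 over 8. A score of 0.5, a G:U wobble and no mismatch, was given at 5A/5B to 6 miRNAs, miR166-13-3p, miR166-1-3p, miR166-6-3p, miR166-12.2-3p, miR166-4.2-3p and miR166-4.1-3p. The highest score there was 4.5, for miR166-7.2-3p and miR166-8.6-3p, with 3 mismatches each. At the 1A/1B site the lowest score was 1, for miR166-12.2-3p and miR166-4.2-3p, each with 2 wobbles and no mismatch, and the highest was 6, for miR166-8.5-3p and miR166-5.2-3p, with 3 mismatches each.

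Each of the 7 shared miRNAs paired better with the 5A/5B site, a direction already set by the sequences of the sites. All 7 reach A5G, where a Watson-Crick pair gives way to a wobble, and none gains a pair from T1C or G2T. The score at 1A/1B exceeded that at 5A/5B by 0.5 for miR166-12.1-3p, miR166-12.2-3p and miR166-4.2-3p, by 1.5 for miR166-3.1-3p, miR166-4.1-3p and miR166-3.2-3p, and by 2.5 for miR166-8.5-3p. The median difference was 1.5 and the mean 1.21 ± 0.756 (SD over 7 miRNAs, which are not replicates). An increase of 0.5 was found where the miRNA reached the extra wobble at A5G but not the mismatch at G2T, and larger ones where it reached G2T as well.

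**Figure D2:**
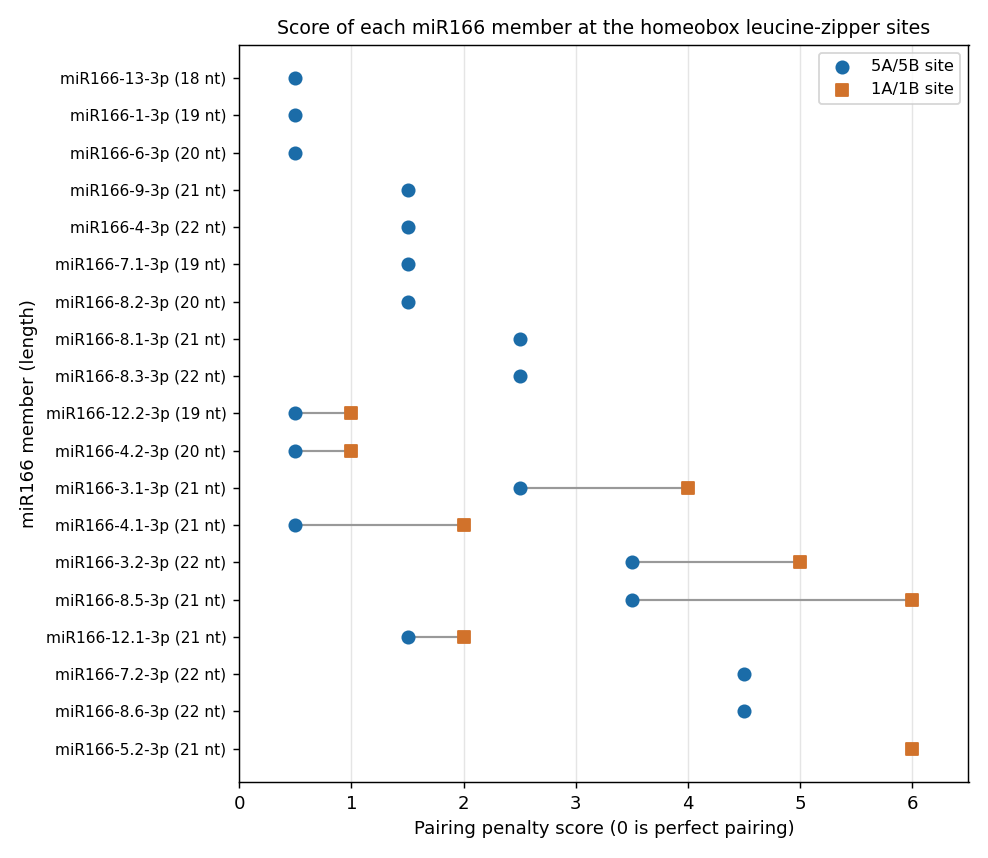
Pairing penalty score (x axis, 0 is perfect pairing) of each of the 19 miR166 members (y axis, length in nt) at the 5A/5B site (circles) and the 1A/1B site (squares), with a line joining the values of a miRNA listed at both. All 7 lines run to a higher score at 1A/1B, by 0.5 to 2.5.

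Counting 1 for a mismatch, 0.5 for a wobble and a further 1 for each place where a wobble and a mismatch are neighbours returned the deposited score of all 52 pairs, and of 213 of the 232 gapless pairs in the table. These weights were chosen after the scores were seen. They place the differences among the miRNAs at named bases. The miRNAs fall into 11 that read cattc after the shared core and 8 that read caatc. At the 5A/5B site the cattc forms scored 0.5 to 3.5 (median 0.5, 11 miRNAs) and the caatc forms 1.5 to 4.5 (median 2.5, 7 miRNAs). At the 1A/1B site 6 cattc forms scored 1 to 5 (median 2), while both caatc forms scored 6.

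In 3 cases a pair of miRNAs differed by this base alone. miR166-1-3p and miR166-7.1-3p (T16A, with miRNA bases numbered from 1 at the 5′ terminus) scored 0.5 and 1.5 at the 5A/5B site, and miR166-6-3p and miR166-8.2-3p (T16A) also scored 0.5 and 1.5. For miR166-3.1-3p and miR166-8.5-3p (T17A) the scores were 2.5 and 3.5 at 5A/5B but 4 and 6 at 1A/1B. The same base thus cost 1 at 5A/5B and 2 at 1A/1B, where its mismatch is next to the wobble at A5G.

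The first base of the miRNA also changed the score. miR166-3.1-3p and miR166-4.1-3p differed only by C1T and scored 2.5 and 0.5 at the 5A/5B site and 4 and 2 at the 1A/1B site, so that a terminal T in place of C was worth 2 at either. By contrast, miR166-7.2-3p and miR166-8.6-3p (T1C) both scored 4.5, as neither base pairs with the site. At the other end, length went with the score through the bases added. Among the first seed group with cattc, the forms of 18, 19 and 20 nt scored 0.5 at 5A/5B and those of 21 and 22 nt 1.5. With caatc, the forms of 19 and 20 nt scored 1.5 and those of 21 and 22 nt 2.5. In both series the step came between 20 and 21 nt, with a mismatch 11 nt upstream of the cut.

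The deposited p-value, given per miRNA and site, separated the pairs of loci fully. It took 3 values at 5A/5B, from 0.000166 to 0.000887, and 6 values at 1A/1B, from 0.00531 to 0.0141. The lowest value at 1A/1B was thus 5.98 times the highest at 5A/5B. Within the 7 shared miRNAs the p-value at 1A/1B was 27.9 to 79.6 times that at 5A/5B (median 32.0 times). The 5A/5B site, in category 3, thus had the lower p-values, and the 1A/1B site, in category 0, the higher. Within a site, p-value and score did not run together throughout. At 5A/5B, 14 miRNAs with scores of 0.5 to 3.5 had the same value of 0.000166. A value of 0.000222 was given to 2, miR166-3.1-3p at a score of 2.5 and miR166-8.5-3p at 3.5, and the 2 with a score of 4.5 had 0.000887.

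At 1A/1B the lowest value, 0.00531, belonged to the 3 miRNAs miR166-12.2-3p, miR166-4.1-3p and miR166-4.2-3p at scores of 1 to 2, but the highest, 0.0141, belonged to miR166-3.1-3p at a score of 4. miR166-8.5-3p, which paired worse at a score of 6, had 0.00619. Dividing by the window share, as the table does for its corrected value, left the ranges at 0.0002 to 0.0009 for 5A/5B and widened them to 0.008 to 0.0211 for 1A/1B. Neither value is corrected for the number of sites tested, and no call was made from them here.

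**Figure D3:**
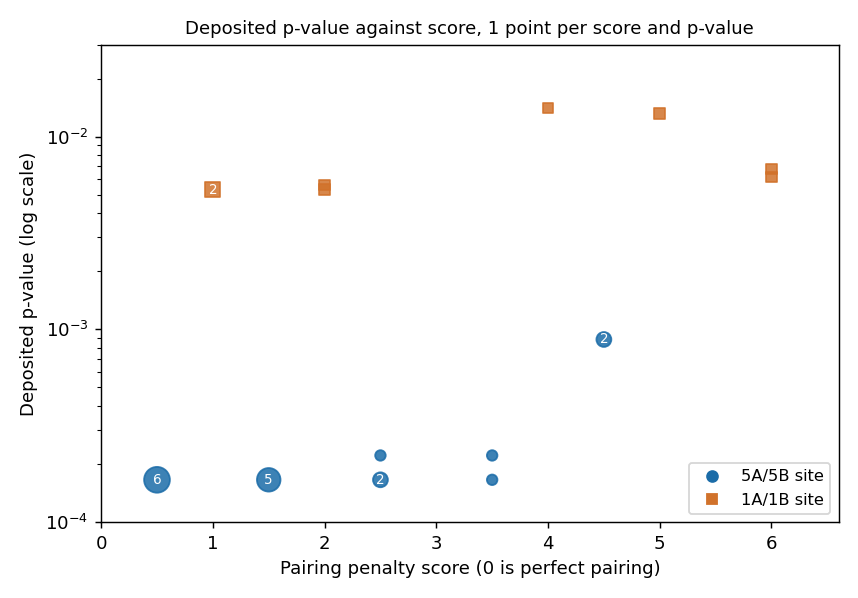
Deposited p-value (y axis, log scale) against pairing penalty score (x axis) for the miR166 members at the 5A/5B site (circles) and the 1A/1B site (squares); a number in a point gives how many miRNAs share it, and its area grows with that number. All values at 1A/1B (0.00531 to 0.0141) lie above all values at 5A/5B (0.000166 to 0.000887), and 14 miRNAs share the lowest value.

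Set beside the other 88 sites of the table, the 4 sites stood out by how many miRNAs were listed on them and not by their tags. Between 1 and 7 miRNAs (median 1) were listed at each of the other sites, against 18 at 5A and 5B and 8 at 1A and 1B. That number is bounded by how many members a family has. The paper names miR1135 and miR166 as its most diverse families, with more members in miR1135. Sites where miR1135 was listed had at most 7 miRNAs, those of miR1136 at the same site included. At the 4 sites 19 miR166 members were listed in all, and family size was not allowed for. Of the other sites, 60 had more than 4 tags and 28 had 4, the lowest count in the table. The lowest score at 5A/5B, 0.5, was reached or bettered at 7 of the 88 (7.95%), and the lowest score at 1A/1B, 1, at 17 (19.3%). The lowest score of a site is taken over its miRNAs and so can only fall as more are listed.

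**Figure D4:**
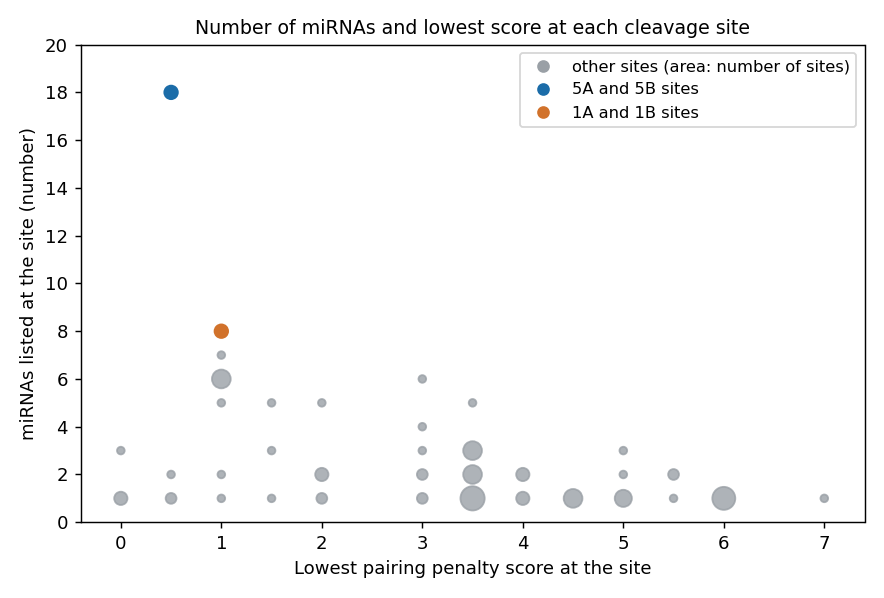
Number of miRNAs listed at a cleavage site (y axis) against the lowest pairing penalty score among them (x axis) for the 92 sites of the table; grey points are the other 88 sites, with area by the number of sites at that place. The 5A and 5B sites lie at 18 miRNAs and a score of 0.5, the 1A and 1B sites at 8 miRNAs and a score of 1, and no other site has more than 7 miRNAs.

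Among the targets of other conserved families, the 9 sites of squamosa promoter-binding loci under miR156, transcription factors of phase change, came closest, with lowest scores of 1 to 2 and 2 to 6 miRNAs a site. Their tags ranged from 4 to 10 and exceeded 4 at 7 sites. The 9 sites of transport inhibitor response loci under miR393, auxin receptors, all had a lowest score of 3.5, with 4 to 7 tags. The 4 superoxide dismutase sites under miR398 and miR528 scored 4.5 to 5 with 1 miRNA each, and the MYB site under miR159 had 7 tags at a score of 1.5. Over all 32 sites of these families, those with other annotations included, the lowest score was 0.5 or less at 0.

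Besides the 4 loci, miR166 was listed at 2 loci annotated only as Alpha-1, TraesCS4A01G166900 and TraesCS4B01G144900, both with miR166-8.5-3p only. Their sequence is shown from position 1030 to 1050, with the base at the cleavage position 1039 in capitals, to set its pairing beside that of the sites above.
TraesCS4A01G166900 and TraesCS4B01G144900: tggatcgagGcctgggacgag

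Here miR166-8.5-3p had 4 mismatches and 1 wobble and scored 4.5. Base 12 of the miRNA faced the cut. By score this lay between its pairing with the 5A/5B site (3.5) and with the 1A/1B site (6). At the Alpha-1 loci 5 of 10 tags were at the listed position, in category 0, at a deposited p-value of 0.0208, against 0.000222 and 0.00619 at the homeobox leucine-zipper sites.

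Other genes of leaf polarity and meristem function were looked for by 12 words of the annotation, among them Argonaute, KANADI, YABBY, auxin response factor, KNOTTED and the little zipper proteins that dimerise with class III members in Arabidopsis. Homeobox and leucine-zipper each matched the 4 loci described above and no other, and the other 10 words matched 0 loci. The table is shorter than the study's own target list, and the paper gives auxin response factor, among these words, as a target of miR167. The 0 matches here thus do not show that such transcripts were not cut or not listed by the study.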

How the data were processed

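The authors sequenced PARE libraries, kept reads of 19 to 21 nt, collapsed them to tags with Tally and mapped these to the IWGSC RefSeq v1.0 coding sequences with sPARTA, whose miRferno module predicted targets. Versions of these tools are not given in the sources used here. All values come from the deposited target table, and the study's mature miRNA sequences served only to check the strings. Its tag counts at the cleavage position and its window signal are deposited without a stated normalization or a statement on how libraries were put together. The deposited fraction is the former over the latter, the deposited score and category are those of the caller, and the deposited p-value is per miRNA and site. The authors state thresholds of 0.05 for the p-value and of more than 4 tags, although rows at 4 are listed.

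From these values, rows were selected by name, the sequences of overlapping binding sites were joined, miRNA strings were reversed to run 5′ to 3′ (19 of 19 then matched the study's mature sequences) and pairing was classed base by base (Python 3.11.15, pandas 2.3.3, scipy 1.17.1, matplotlib 3.10.9), which was tested on simulated data. The base opposite a cut was counted with base 1 opposite the last base of the binding site. Scores at unlisted positions were computed with the weights given in the text. Poisson and Wilson intervals cover counting error only, and only if the deposited values are raw counts of independent reads. No test was run, since each site has 1 value and its rows share tags. Loci, lists and comparisons were chosen with earlier results of these data known. The 4 loci, every other miR166 locus and all miRNAs at the sites were named. Of the locus IDs, 0 of the 4 matched the reference names table, of another assembly, so no genome coordinates are given. The planned test of heat against control was not run, as the table has no column per library.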

Additional observations from a re-analysis of the deposited data

How the results depend on the processing

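No paired analysis was possible because the table does not split its values by library or replicate; edgeR, DESeq2, the replicate block and leaving out replicates were not run for the same reason. With an abundance over 4, as the methods state it, 0 of the 52 pairs and 0 miRNAs at either site were left, so every result here rests on sites at the lowest count in the table. Category 0 kept 16 pairs, all 8 miRNAs at 1A/1B and 0 at 5A/5B, and 1 locus per copy set gave 26 pairs, by construction. The median score difference between the sites fell from 1.5 to 0.5 at a p-value under 0.01, which drops miR166-3.1-3p and miR166-3.2-3p at 1A/1B, and was 0.5 between the lowest scores at each site. Among sites of other conserved families, 0% reached the lowest score of 5A/5B, against 7.95% of all other sites, and with medians over the rows of a site 33.0% reached that of 1A/1B, against 19.3%, and 14.8% that of 5A/5B, against 7.95%. That last value is among 20 of the 30 alternatives that moved a value by less than its interval or spread, or a count by less than 1.5 times. Some of these could not move, such as the window share averaged over rows that all share it. A reversal, of which there were 0, was possible only for differences, since counts and shares have no direction. Depth limits all counts of tags, since 4 tags cannot separate loci that differ several-fold.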
